A study of Saccharomyces cerevisiae with 20 samples.

Results

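A pair of yeast strains that lack different parts of the same tRNA wobble modification were compared directly at the level of messenger RNA. The elp3 deg1 strain lacks Elp3, the urm1 deg1 strain lacks Urm1, and both lack Deg1. The comparison took all 4 libraries labelled elp3 deg1 and all 4 labelled urm1 deg1, 8 of the 20 libraries of the series, and the 4 WT libraries were used to place the levels. All strains are haploid Saccharomyces cerevisiae of mating type a in the BY4741 background, with his3, leu2, met15 and ura3, and the labels add lys2 for each of them. The markers are given as in the study's strain list, which does not name lys2. There, the elp3 deg1 strain carries elp3 replaced by KanMX4 and deg1 replaced by SpHIS5, a fission yeast histidine gene. The urm1 deg1 strain is listed with urm1 replaced by KanMX4 and a deg1 deletion with a loxP scar. By that list only elp3 deg1 holds a histidine marker. Cells were grown in minimal medium to an OD600 of 1.0 and poly(A) RNA was sequenced. Each genotype was 1 strain, and nothing in the labels says whether the 4 libraries came from separate cultures, so p-values measure only the spread between these libraries.

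Elp3 is the catalytic subunit of Elongator, which starts the side chain at carbon 5 (mcm5) of the wobble uridine in a group of tRNAs. Urm1 is a ubiquitin-like protein that carries the sulfur for the 2-thio group (s2) of the same uridine and is also attached to other proteins, among them the peroxiredoxin Ahp1. Deg1 makes pseudouridine at positions 38 and 39 of many tRNAs. The tRNA for glutamine with anticodon UUG carries the wobble modification and pseudouridine 38, and the tRNAs for lysine (UUU) and glutamate (UUC) carry the wobble modification too. In both strains the glutamine tRNA therefore misses pseudouridine 38 and either the mcm5 or the s2 group.

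The 3 tRNAs are shown because their wobble uridine carries both the mcm5 and the s2 group, of which each strain misses a different one. They were read from the R64 reference without introns, as DNA, with positions 34 to 38 in capitals: the first capital is the wobble base (34), and the last is position 38, the Deg1 site of the glutamine tRNA. The glutamine sequence stands for 7 of 9 nuclear copies, here III:168301-168372 on the minus strand. The lysine sequence is that of 7 of 7 copies, here IV:359577-359672 on the plus strand, and the glutamate sequence that of 13 of 14, here II:645167-645238 on the plus strand.
tQ(UUG): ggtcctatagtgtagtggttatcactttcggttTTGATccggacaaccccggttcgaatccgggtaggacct
tK(UUU): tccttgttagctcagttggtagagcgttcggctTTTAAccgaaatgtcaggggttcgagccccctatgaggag
tE(UUC): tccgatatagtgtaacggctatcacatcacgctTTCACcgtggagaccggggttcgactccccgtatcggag

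Each table listed 7126 genes, and libraries held 3388420 to 3926511 counts in elp3 deg1, 3273876 to 3809078 in urm1 deg1 and 3307869 to 3457553 in WT. Levels below are CPM, that is, counts scaled to the TMM-normalized library size, and 3 counts, taken as the floor of detection, came to 0.764 to 0.916 CPM before normalization, a limit that covers counting error only. The deleted genes followed the labels. ELP3 was at 0 to 0.83 CPM in elp3 deg1, against 122 to 141 CPM in urm1 deg1. URM1 was at 43.2 to 51.2 CPM in elp3 deg1, against 0 to 0.27 CPM in urm1 deg1 and 25.7 to 34.4 CPM in WT. DEG1 had 0 counts in all 8 double mutant libraries, against 226 to 273 counts in WT. LEU2, MET17 (met15) and URA3 had 0 counts in every library, and the a-cell receptor gene STE2 was present in each. HIS3, listed as deleted in the parent strain, was not at 0. It had 1132 to 1263 counts in elp3 deg1, against 648 to 772 counts in urm1 deg1 and 1398 to 1689 counts in WT. Of the α-specific genes, looked at as a check of mating type, STE3 was nevertheless counted at 22.4 to 28.4 CPM in elp3 deg1 and 33.0 to 40.2 CPM in urm1 deg1, and SAG1 at 58.7 to 71.9 CPM in elp3 deg1 and 73.6 to 81.8 CPM in urm1 deg1. In counts, STE3 had 21 to 38 in WT, 70 to 96 in elp3 deg1 and 120 to 149 in urm1 deg1. SAG1 had 254 to 325 counts in WT, 210 to 230 in elp3 deg1 and 285 to 303 in urm1 deg1. Libraries were sequenced on different lanes with no lane in the labels, and their numbering runs in blocks by strain, so a batch and the genotype cannot be told apart.

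The strains differed over much of the transcriptome. Of 5689 nuclear genes tested with edgeR's quasi-likelihood test, 1762 (31.0%) were higher in elp3 deg1 and 1803 (31.7%) were lower at an adjusted p of 0.01 or less. At least 2-fold, 192 genes (3.37%) were higher and 237 (4.17%) lower. These 4 shares are the background for every count of a gene group below, and the median log2 fold change of all genes was −0.01. Libraries that did not overlap between the strains were common too. On CPM scaled over the 12 libraries with WT, 1977 of the 5689 genes were so higher in elp3 deg1 and 1603 lower. The calls above use factors of the 8 libraries alone, so the 2 splits are on different scales. A fit over the 12 libraries called 1975 genes higher and 1660 lower. Replicates were close (biological coefficient of variation 0.0341), and the median size of the log2 fold change was 0.302. Scaling by library size alone moved the median of all genes to −0.19 and the calls to 1118 higher and 2717 lower, 29.2% higher among all calls against 49.4% with TMM. Composition moved with this: the glycolysis genes held 6.52 to 6.75% of all counts in elp3 deg1, against 3.46 to 3.60% in urm1 deg1 and 3.13 to 3.23% in WT. In the other direction, ribosomal protein genes held 7.76 to 8.36% in elp3 deg1, against 9.39 to 9.82% in urm1 deg1. The part of these shares in the shift was not tested. Fold changes are given as log2 of elp3 deg1 over urm1 deg1 ± SE, and changes are relative to the TMM scale.

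**Figure D1:**
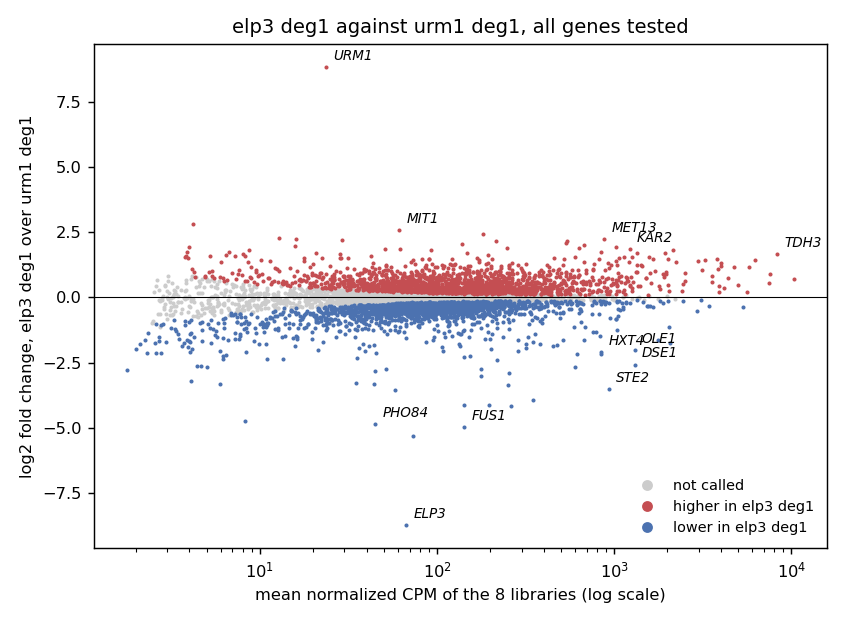
Log2 fold change of elp3 deg1 over urm1 deg1 (y axis) against the mean normalized CPM of the 8 libraries (x axis, log scale) for the 5689 genes tested. Red points were higher in elp3 deg1 (1762), blue points lower (1803) and grey points not called, and named genes stand out at both edges, with FUS1, STE2, PHO84 and DSE1 below and MIT1, MET13, KAR2 and TDH3 above.

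The genes by which a cells sense and answer α-factor were lower in elp3 deg1 as a group. Of 29 mating and pheromone genes tested, 28 were lower in elp3 deg1, 25 of them at least 2-fold, and none was higher, with a median log2 fold change of −2.39. The group lay on both sides of WT: its median was −1.25 for elp3 deg1 over WT and 1.25 for urm1 deg1 over WT. Of the 10 largest decreases among called genes that averaged at least 10 CPM and did not overlap between strains, 9 were members of it, and the other was the phosphate transporter gene PHO84.

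All 7 a-specific genes, which only cells of mating type a normally express, were lower, with a median of −3.50. STE2 (VI:82580-83875, plus strand), the α-factor receptor, had 147, 146, 161 and 169 CPM in elp3 deg1, against 1674, 1697, 1767 and 1727 CPM in urm1 deg1 and 530 to 563 CPM in WT. The urm1 deg1 libraries were thus the highest and the elp3 deg1 libraries the lowest of the 3 strains, with no overlap, and the difference was −3.50 ± 0.04 (adjusted p = 2.4e-31 in edgeR's quasi-likelihood test). BAR1, the secreted protease that degrades α-factor, had 42.8, 45.3, 44.7 and 43.9 CPM in elp3 deg1, against 653, 656, 654 and 638 CPM in urm1 deg1 (−3.92 ± 0.05). AGA2, the binding subunit of a-agglutinin on the cell surface, had 19.8 to 24.0 CPM in elp3 deg1, against 350 to 397 CPM in urm1 deg1 (−4.13 ± 0.07). The a-factor genes and the a-factor exporter were looked up after their values were seen. MFA1 was lower by a log2 of −2.99 and MFA2 by −2.90, and the exporter gene STE6 by −1.94.

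The genes that pheromone signalling induces in either cell type gave the steepest single differences. FUS1 (III:71803-73341, plus strand), a membrane protein needed for cell fusion, had 6.67, 8.88, 9.27 and 11.5 CPM in elp3 deg1, against 273, 289, 281 and 262 CPM in urm1 deg1 and 71.8 to 81.1 CPM in WT. All elp3 deg1 libraries lay below WT and all urm1 deg1 libraries above it, and the strains differed by −4.97 ± 0.09 (adjusted p = 3.3e-28 in edgeR's quasi-likelihood test). Each mutant differed from the shared WT libraries, by −3.08 in elp3 deg1 and by 1.85 in urm1 deg1. PRM1, which acts in plasma membrane fusion of mating cells, had 2.78 to 5.03 CPM in elp3 deg1, against 126 to 154 CPM in urm1 deg1, the largest decrease outside the deleted genes (−5.31 ± 0.12). AGA1, the anchor of a-agglutinin, differed by −4.17 ± 0.06, and FAR1, the inhibitor that arrests the cell cycle in G1 on pheromone, by −4.11 ± 0.08.

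Parts of the signalling chain itself were lower too. SST2, which turns off the G protein and so desensitizes the cell, had 42.5 to 49.5 CPM in elp3 deg1, against 428 to 475 CPM in urm1 deg1 (−3.36 ± 0.06). Among members chosen after their values were seen, the Gα subunit gene GPA1 was lower by a log2 of −2.39, the MAP kinase gene FUS3 by −1.10, and STE12, which encodes the transcription factor of the response, by −1.64. STE12 had 39.4 to 54.2 CPM in elp3 deg1, against 130 to 158 CPM in urm1 deg1 and 65.8 to 71.2 CPM in WT. The exception of the list was PRM8, named as such after its value was seen, with 62.2 to 77.0 CPM in elp3 deg1 and 57.8 to 65.7 CPM in urm1 deg1, which was not called (0.14 ± 0.07). In a culture, fewer cells that express a gene and less RNA of it per cell cannot be told apart.

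**Figure D2:**
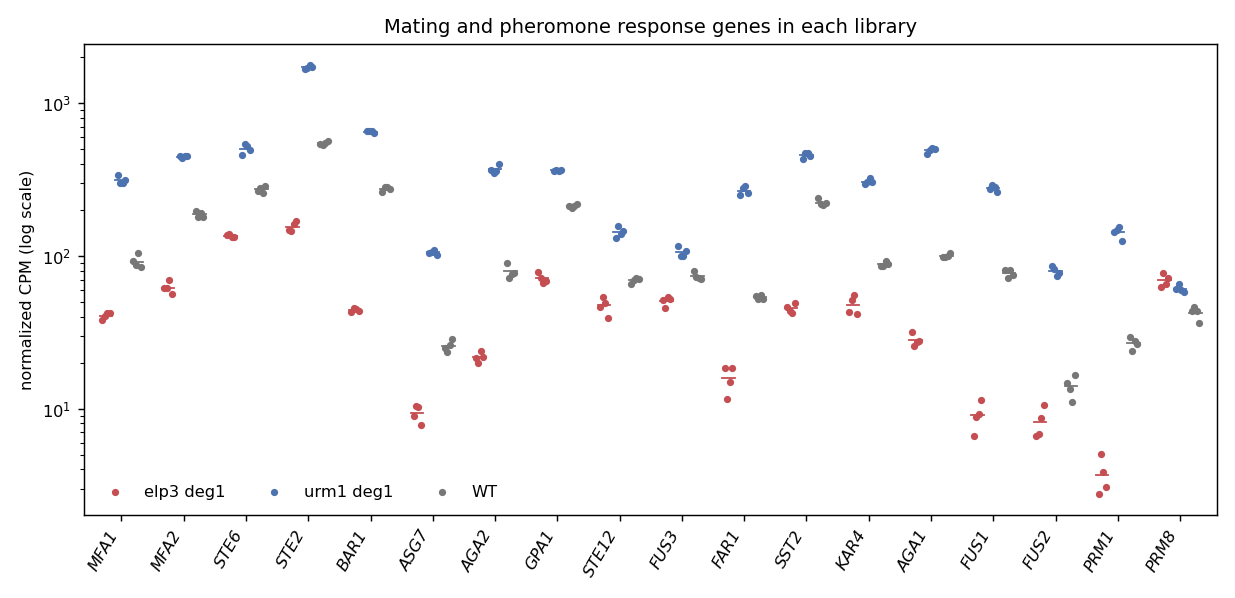
Normalized CPM (log scale) of mating and pheromone genes in each library, 1 point per library, with elp3 deg1 left of urm1 deg1 and WT for each gene and a bar at the group mean. Every gene but PRM8 has its 4 elp3 deg1 points below its 4 urm1 deg1 points, as do 1603 of all 5689 genes tested. FUS1 runs from 6.67 to 11.5 CPM in elp3 deg1 and from 262 to 289 CPM in urm1 deg1.

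Of the 4 α-specific genes used to check the mating type, STE3, SAG1 and MF(ALPHA)1 were lower in elp3 deg1. MF(ALPHA)1, an α-factor gene, had 9 to 21 counts in elp3 deg1, against 38 to 45 counts in urm1 deg1 and 1 to 6 counts in WT. STE3, the a-factor receptor gene of α cells, differed by −0.58 ± 0.10, a call that was lost in 1 fit over 20 libraries (adjusted p = 0.014 in edgeR's quasi-likelihood test), and MF(ALPHA)2 overlapped at 0 to 2 counts in elp3 deg1 and 1 to 4 counts in urm1 deg1. The silent cassette gene HMRA1, chosen after its values were seen, had 65.7 to 71.3 CPM in elp3 deg1, against 88.2 to 111 CPM in urm1 deg1 and 41.9 to 56.4 CPM in WT, but its reads cannot be separated from those of the identical gene at the mating type locus. Of the silencing and chromatin list, 5 of 26 genes were higher and 10 lower.

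The promoter of FUS1 is shown because its gene had one of the largest differences of the mating group and it holds copies of the motif bound by Ste12. The 300 bases before the start codon were read from R64 (III:71503-71802, plus strand), with matches to TGAAACA in capitals. Matches to TGAAACA on either strand were in 17 of the 29 windows of the mating list (58.6%), and in 7.2% of all 5987 windows of this length. A match describes the sequence only.
FUS1: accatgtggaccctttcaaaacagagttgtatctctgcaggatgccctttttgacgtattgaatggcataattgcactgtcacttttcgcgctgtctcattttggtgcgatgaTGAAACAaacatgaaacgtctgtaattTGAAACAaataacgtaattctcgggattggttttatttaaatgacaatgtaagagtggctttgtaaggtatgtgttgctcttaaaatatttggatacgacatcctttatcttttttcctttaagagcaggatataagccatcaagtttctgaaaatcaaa

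Genes that daughter cells express after division, many of them for separation from the mother, were lower in elp3 deg1 while both mutants lay above WT. Of 8 daughter and cell separation genes, 7 were lower in elp3 deg1, 5 of them at least 2-fold, and 1 was higher. Their median was 1.22 for elp3 deg1 over WT and 2.80 for urm1 deg1 over WT. DSE1 (V:407342-409063, minus strand), a daughter cell protein of the cell wall, had 377, 350, 398 and 416 CPM in elp3 deg1, against 2095, 2293, 2265 and 2257 CPM in urm1 deg1 and 161 to 177 CPM in WT. No library of one strain reached another strain, and the difference was −2.57 ± 0.04 (adjusted p = 2.2e-28 in edgeR's quasi-likelihood test). SCW11, a cell wall glucanase-like protein, had 215 to 243 CPM in elp3 deg1, against 998 to 1020 CPM in urm1 deg1 and 53.4 to 58.9 CPM in WT (−2.15 ± 0.04). CTS1, the chitinase that separates mother and daughter, was looked up after its value was seen, and had 925 to 990 CPM in elp3 deg1, against 3160 to 3197 CPM in urm1 deg1 (−1.76 ± 0.03). The gene that went the other way was DSE4, a daughter-specific glucanase, with 469 to 515 CPM in elp3 deg1, against 249 to 278 CPM in urm1 deg1 (0.86 ± 0.04).

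Other cell cycle genes were lower by smaller amounts. Over the whole list of 39 genes tested, 25 were lower in elp3 deg1 (15 in 1 fit over 20 libraries) and 4 higher, with a median of −0.41. CLN1, a G1 cyclin, had 30.2 to 42.2 CPM in elp3 deg1, against 65.1 to 72.8 CPM in urm1 deg1 and 7.51 to 11.5 CPM in WT (−0.96 ± 0.09, not called over 20 libraries). PCL2, a G1 cyclin partner of the kinase Pho85, differed by −1.12 ± 0.13. Of the mitotic genes, 6 of 10 were lower and 1 higher, with CLB2, a mitotic cyclin, at −0.86 ± 0.13 (not called over 20 libraries), chosen after its value was seen. Histone genes were lower in 6 of 10 cases and higher in 1.

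**Figure D3:**
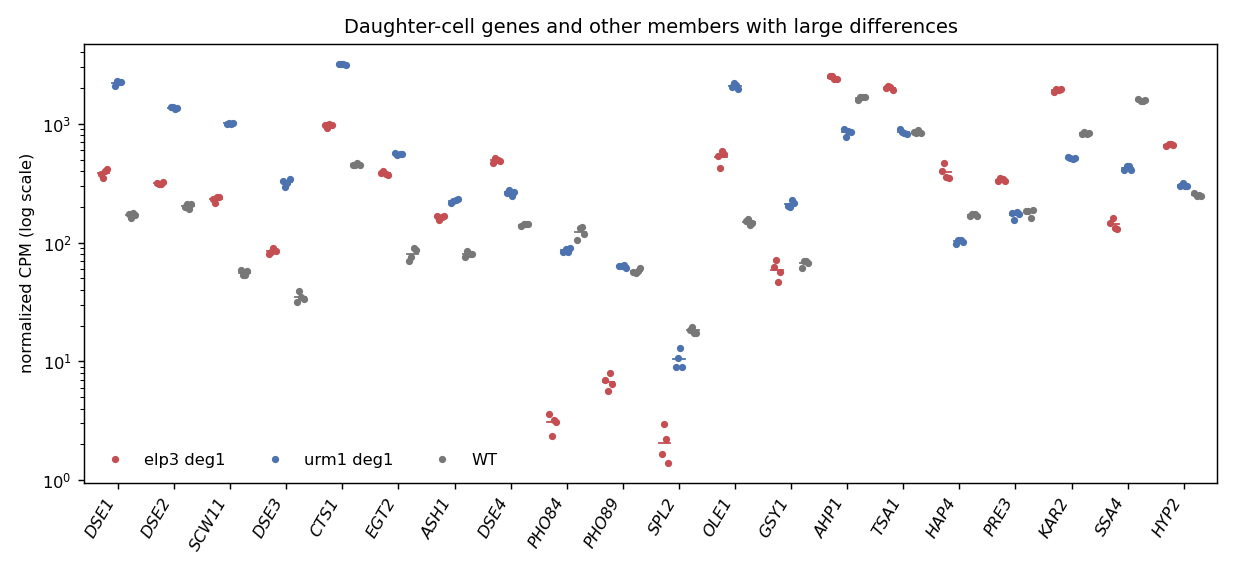
Normalized CPM (log scale) per library of daughter cell genes and of further genes named in the text, with elp3 deg1 left of urm1 deg1 and WT for each gene and a bar at the group mean. DSE1 lies between 350 and 416 CPM in elp3 deg1 and between 2095 and 2293 CPM in urm1 deg1, both above the WT points, while DSE4, TSA1, KAR2 and HYP2 are higher in elp3 deg1.

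Glucose breakdown went the other way. Of 17 glycolysis genes, 16 were higher in elp3 deg1, 6 of them at least 2-fold, and 1 was lower, with a median of 0.91. The median was 1.06 for elp3 deg1 over WT and 0.13 for urm1 deg1 over WT. TDH3 (VII:882812-883810, minus strand), the main glyceraldehyde-3-phosphate dehydrogenase, had 12610, 13120, 12550 and 12440 CPM in elp3 deg1, against 4088, 3879, 3761 and 3889 CPM in urm1 deg1 and 4662 to 5019 CPM in WT. Its elp3 deg1 libraries stood above both other strains without overlap (1.66 ± 0.03, adjusted p = 8.8e-28 in edgeR's quasi-likelihood test). PGK1, phosphoglycerate kinase, had 5345 to 5934 CPM in elp3 deg1, against 1875 to 2070 CPM in urm1 deg1 (1.48 ± 0.04).

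The remaining steps followed the same direction with different positions against WT. CDC19, the main pyruvate kinase, had 9002 to 9333 CPM in elp3 deg1, against 3195 to 3481 CPM in urm1 deg1 and 4946 to 5494 CPM in WT (1.42 ± 0.03). It thus lay above WT in elp3 deg1 and below WT in urm1 deg1. The enolase genes ENO1 and ENO2 differed by 1.17 ± 0.03 and 1.22 ± 0.03. Upper glycolysis was higher in 5 of 5 genes, with the phosphofructokinase subunit gene PFK1 at 0.96 ± 0.04 and the aldolase gene FBA1 at 0.91 ± 0.03 (not called over 20 libraries). Lower glycolysis was higher in 9 of 9 genes. Of these, TDH1 (0.57) and GPM1 (0.84) were not called over 20 libraries, and PYK2 (0.21) was not called with library size alone.

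The 3 genes that phosphorylate glucose were split. HXK2, the hexokinase of glucose-grown cells that also takes part in glucose repression, had 1016 to 1067 CPM in elp3 deg1, against 469 to 495 CPM in urm1 deg1 and 1367 to 1469 CPM in WT (1.09 ± 0.03). HXK1, the hexokinase isoform that glucose represses, had 482, 519, 430 and 434 CPM in elp3 deg1, against 1111, 1090, 1184 and 1101 CPM in urm1 deg1 and 395 to 453 CPM in WT (−1.31 ± 0.05). The urm1 deg1 libraries were the high ones for HXK1 and the low ones for HXK2, and HXK1 in elp3 deg1 over WT was at 0.14, not called there but called with a replicate block (0.14) and without WT replicate 2 or 4 (0.17 each). GLK1, the glucokinase gene, was higher in elp3 deg1 by 0.56 ± 0.04, a call lost in 1 fit over 20 libraries.

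Hexose transporter genes were mostly lower in elp3 deg1: among 10 transporters tested of 16 listed, 7 were lower, 5 of them at least 2-fold, and 2 were higher. HXT6 and HXT7, which encode high-affinity transporters, had 7.83 to 15.1 and 12.5 to 16.0 CPM in elp3 deg1, against 70.4 to 82.1 and 82.7 to 95.3 CPM in urm1 deg1. These genes are nearly identical, so reads may have been divided between them, and their differences of −2.82 ± 0.11 and −2.74 ± 0.09 are not independent. HXT4, chosen after its value was seen, differed by −2.10 ± 0.05. HXT1, the low-affinity transporter of high glucose, was higher, with 1292 to 1593 CPM in elp3 deg1, against 742 to 794 CPM in urm1 deg1 (0.82 ± 0.05). The more abundant HXT3, chosen after its value was seen, was lower, with 5838 to 5927 CPM in urm1 deg1. That call was lost in 1 fit over 20 libraries (−0.34). Sensors and regulators of glucose uptake were mixed, with 5 of 13 higher and 7 lower.

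Genes after pyruvate were mixed as well. Of 15 fermentation and acetate genes, 9 were higher and 4 lower, or 4 and 1 in 1 fit over 20 libraries. PDC1, the main pyruvate decarboxylase, had 4964 to 5575 CPM in elp3 deg1, against 2288 to 2617 CPM in urm1 deg1 and 13380 to 14380 CPM in WT, so both mutants were below WT and urm1 deg1 the lower of them (1.08 ± 0.04). Its isoenzyme PDC5 was low in both, with 60.1 to 73.1 CPM in elp3 deg1, against 85.4 to 101 CPM in urm1 deg1 and 1164 to 1189 CPM in WT (−0.57 ± 0.07, not called over 20 libraries). ADH2, the alcohol dehydrogenase that consumes ethanol and is repressed by glucose, had 15 to 19.8 CPM in elp3 deg1, against 66.0 to 79.5 CPM in urm1 deg1 (−2.11 ± 0.10, not called over 20 libraries). ALD6 and ALD5, aldehyde dehydrogenases that form acetate, were higher in elp3 deg1 by 1.71 ± 0.05 and 1.55 ± 0.03.

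In the pentose phosphate pathway, 7 of 11 genes were higher and 2 lower, with a median of 0.74. GND1, the main 6-phosphogluconate dehydrogenase and a source of NADPH, had 1609, 1606, 1680 and 1608 CPM in elp3 deg1, against 426, 429, 393 and 399 CPM in urm1 deg1 and 343 to 392 CPM in WT. The elp3 deg1 libraries were the high ones, far above both other strains (1.94 ± 0.04). TKL2, the minor transketolase, went the other way, with 6.71 to 9.77 CPM in elp3 deg1, against 29.6 to 39 CPM in urm1 deg1 (−2.02 ± 0.14, not called over 20 libraries).

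Gluconeogenesis and storage carbohydrate genes were lower more often than higher. Of 15 gluconeogenesis and glyoxylate cycle genes, 9 were lower and 4 higher, with a median of −0.65. MLS1, the malate synthase of the glyoxylate cycle, had 2.66 to 6.39 CPM in elp3 deg1, against 18.3 to 25.6 CPM in urm1 deg1 (−2.34 ± 0.19). YAT1, a carnitine acetyltransferase, differed by −2.06 ± 0.08, and PYC2, a pyruvate carboxylase, by 0.98 ± 0.04. Of 20 trehalose and glycogen genes, 13 were lower (4 in 1 fit over 20 libraries) and 4 higher (1 or 2 higher without replicate 3 or 4 of either strain), and the lower ones included 6 of 8 genes of glycogen synthesis. GSY1, a glycogen synthase, had 46.7 to 71.3 CPM in elp3 deg1, against 199 to 227 CPM in urm1 deg1 and 60.6 to 70.6 CPM in WT (−1.87 ± 0.07), and GLC3, the branching enzyme, differed by −1.29 ± 0.06 (not called over 20 libraries).

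**Figure D4:**
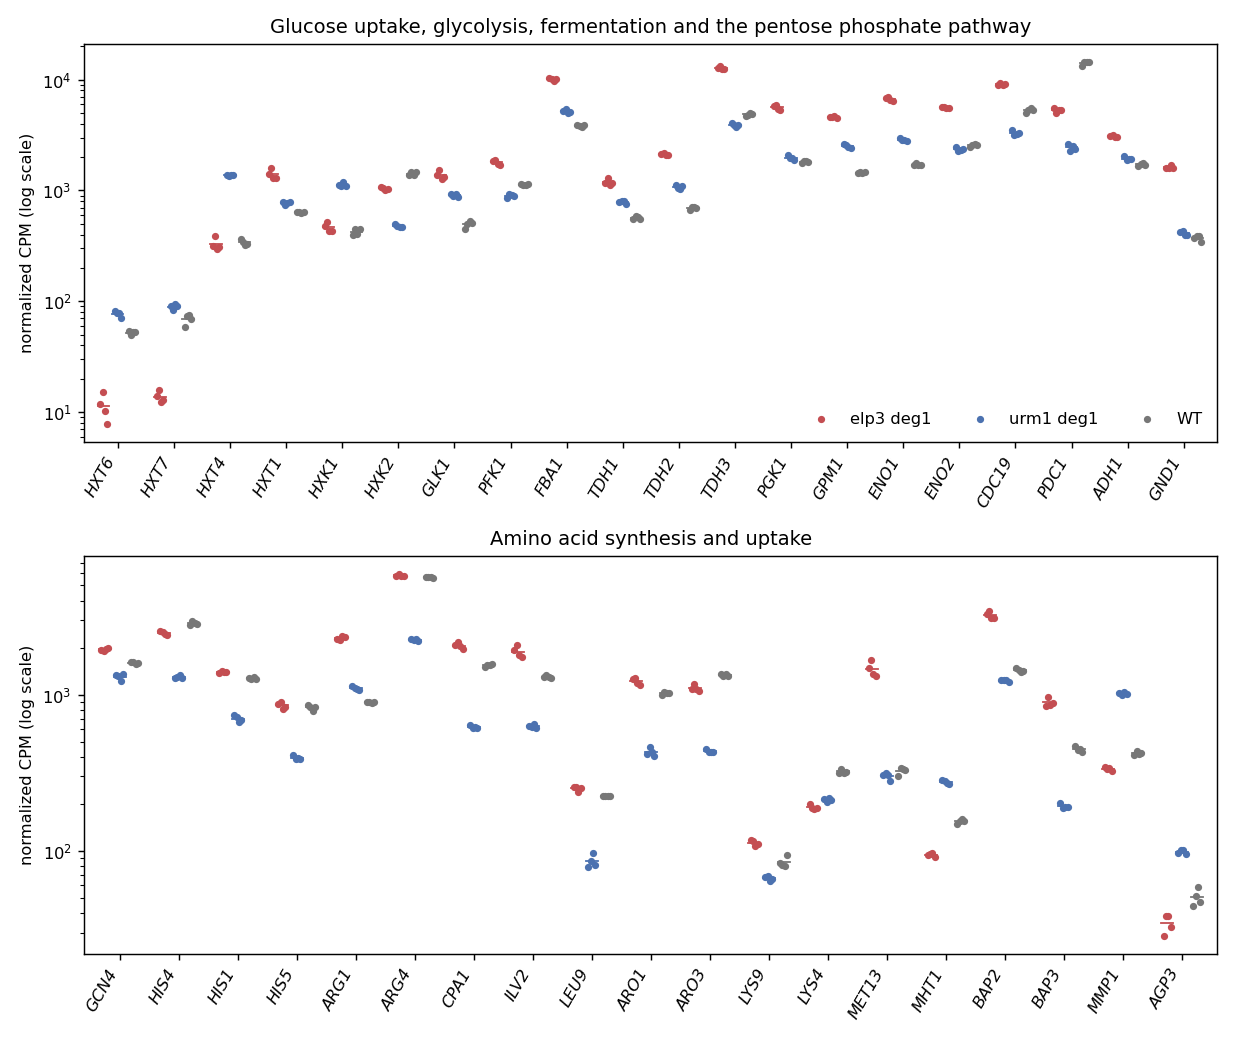
Normalized CPM (log scale) per library of glucose uptake, glycolysis and fermentation genes (top) and of amino acid synthesis and uptake genes (bottom), with elp3 deg1 left of urm1 deg1 and WT for each gene and a bar at the group mean. TDH3 lies between 12440 and 13120 CPM in elp3 deg1 and between 3761 and 4088 CPM in urm1 deg1, and the arginine gene CPA1 between 1946 and 2162 CPM in elp3 deg1 and between 608 and 641 CPM in urm1 deg1.

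Amino acid biosynthesis genes were higher in elp3 deg1, with urm1 deg1 below WT. Of 78 genes tested, 54 were higher in elp3 deg1, 22 of them at least 2-fold, and 5 were lower, with a median of 0.60. The median was −0.04 for elp3 deg1 over WT and −0.62 for urm1 deg1 over WT. Many of these genes are targets of Gcn4, the activator of general amino acid control. GCN4 mRNA, chosen after its value was seen, had 1894 to 1989 CPM in elp3 deg1, against 1215 to 1345 CPM in urm1 deg1 and 1564 to 1626 CPM in WT (0.54 ± 0.03). Gcn4 is mainly controlled at translation, which these counts do not measure. GCN2, the kinase that senses uncharged tRNA, was lower, with 86.4 to 95.3 CPM in elp3 deg1, against 113 to 124 CPM in urm1 deg1 (−0.46 ± 0.06).

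Arginine synthesis had all 10 of its genes higher, 7 of them at least 2-fold, with a median of 1.21 (0.09 for elp3 deg1 over WT and −1.28 for urm1 deg1 over WT). CPA1, the small subunit of the arginine-specific carbamoyl phosphate synthetase, had 2070, 2162, 2055 and 1946 CPM in elp3 deg1, against 641, 608, 621 and 609 CPM in urm1 deg1 and 1493 to 1580 CPM in WT. The urm1 deg1 libraries were far below the others, which were closer to each other (1.69 ± 0.04, adjusted p = 3e-26 in edgeR's quasi-likelihood test). ARG4, argininosuccinate lyase, was looked up after its value was seen, and had 5735 to 5931 CPM in elp3 deg1, against 2217 to 2279 CPM in urm1 deg1 and 5539 to 5694 CPM in WT (1.32 ± 0.03). It was not called between elp3 deg1 and WT (0.04).

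Branched-chain and aromatic synthesis followed. Among 10 branched-chain genes, 9 were higher, 7 of them at least 2-fold, with a median of 1.26, and among 13 aromatic genes 10 were higher, with a median of 0.78. From these groups, chosen after their values were seen, ILV2, acetolactate synthase, had 1750 to 2069 CPM in elp3 deg1, against 611 to 646 CPM in urm1 deg1 (1.55 ± 0.04). ARO1, the pentafunctional enzyme of the shikimate pathway, had 1149 to 1277 CPM in elp3 deg1, against 403 to 461 CPM in urm1 deg1 (1.47 ± 0.04).

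Histidine genes were higher in 5 of 6 cases, with a median of 0.90. HIS4 had 2419 to 2562 CPM in elp3 deg1, against 1273 to 1328 CPM in urm1 deg1 and 2770 to 2957 CPM in WT (0.90 ± 0.03), and HIS5 differed by 1.07 ± 0.04. HIS6 was not called (−0.17 ± 0.08), except with library size alone (−0.35). Only elp3 deg1 is listed with the SpHIS5 marker. Beside histidine and other amino acid genes the marker and the loss of Elp3 or Urm1 therefore cannot be told apart. Lysine genes were higher in 6 of 7 cases by smaller amounts (median 0.47), and LYS2, the locus that the labels give as mutated in every strain, had 17.5 to 24.6 CPM in elp3 deg1, against 3.66 to 4.94 CPM in urm1 deg1 and 8.14 to 13.0 CPM in WT (2.27 ± 0.18).

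Sulfur amino acid genes were less uniform: 10 of 21 were higher and 2 lower. MET13, a methylenetetrahydrofolate reductase, had 1483, 1665, 1352 and 1323 CPM in elp3 deg1, against 304, 314, 304 and 279 CPM in urm1 deg1 and 299 to 340 CPM in WT. Here elp3 deg1 was the strain that stood apart (2.24 ± 0.05). MHT1, which recycles S-methylmethionine, went the other way (−1.59 ± 0.05), as did its neighbour MMP1, the S-methylmethionine permease (−1.64 ± 0.04).

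The ARG1 promoter is shown as one of the arginine genes with a Gcn4 motif. In the 300 bases before its start codon (XV:218911-219210, plus strand), the match to TGACTC lies on the other strand and is written as its complement GAGTCA in capitals. Matches on either strand were in 37 of the 78 windows of amino acid biosynthesis genes (47.4%), and in 7.8% of all windows. ARG1, chosen after its value was seen, had 2221 to 2356 CPM in elp3 deg1, against 1066 to 1127 CPM in urm1 deg1 and 889 to 901 CPM in WT (1.03 ± 0.03).
ARG1: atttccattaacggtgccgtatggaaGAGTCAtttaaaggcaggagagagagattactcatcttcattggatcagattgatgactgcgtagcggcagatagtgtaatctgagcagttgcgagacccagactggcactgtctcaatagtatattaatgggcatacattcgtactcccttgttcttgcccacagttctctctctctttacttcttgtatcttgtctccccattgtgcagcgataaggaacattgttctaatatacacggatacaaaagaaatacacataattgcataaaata

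Uptake and charging of amino acids changed with synthesis in part. Of 18 amino acid permease genes, 10 were higher and 5 lower. BAP3, a permease of branched-chain amino acids, had 851, 971, 864 and 879 CPM in elp3 deg1, against 202, 189, 191 and 191 CPM in urm1 deg1 and 428 to 467 CPM in WT. It lay above WT in elp3 deg1 and below WT in urm1 deg1 (2.16 ± 0.04). BAP2, its relative, differed by 1.35 ± 0.03, and AGP3 by −1.57 ± 0.08. Of 21 aminoacyl-tRNA synthetase genes, 16 were higher in elp3 deg1 and 1 was lower, with a median of 0.47, and none differed 2-fold. Both mutants were below WT over this list, with medians of −0.29 for elp3 deg1 and −0.66 for urm1 deg1.

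The synthetases for lysine and glutamine differed in direction. KRS1, which charges lysine tRNAs, had 1855 to 1918 CPM in elp3 deg1, against 1087 to 1156 CPM in urm1 deg1 and 2674 to 2714 CPM in WT (0.73 ± 0.03). GLN4, which charges glutamine tRNAs, was the member that was lower, with 307 to 315 CPM in elp3 deg1, against 344 to 380 CPM in urm1 deg1 and 373 to 400 CPM in WT (−0.28 ± 0.04).

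The nitrogen catabolite repression list holds genes kept low while a good nitrogen source is sensed. It also holds regulators and assimilation genes, such as GLN1 with 1616 to 1711 CPM in WT. The genes of the list were split, with 13 of 32 higher and 16 lower (8 and 9 in 1 fit over 20 libraries). Their permeases were lower in 6 of 7 cases: PUT4, the proline permease, had 4.16 to 8.67 CPM in elp3 deg1, against 22.1 to 27.2 CPM in urm1 deg1 (−1.86 ± 0.16), and UGA4, the GABA permease, differed by −1.54 ± 0.14. MEP2, the ammonium permease, had 200 to 237 CPM in elp3 deg1, against 294 to 314 CPM in urm1 deg1 and 43.4 to 56.5 CPM in WT (−0.48 ± 0.05, not called over 20 libraries). Of the glutamate dehydrogenases, GDH1 was higher, with 3230 to 3418 CPM in elp3 deg1, against 1636 to 1781 CPM in urm1 deg1 (0.95 ± 0.03), and its paralog GDH3 lower (−1.34 ± 0.08). In the Ehrlich pathway of aromatic amino acid catabolism, 2 of 4 genes were higher and 1 lower. Both strains were far below WT for ARO10, with 69.9 to 89.5 CPM in elp3 deg1, against 90.3 to 102 CPM in urm1 deg1 and 1913 to 2013 CPM in WT (−0.31 ± 0.07 between the mutants, not called over 20 libraries).

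**Figure D5:**
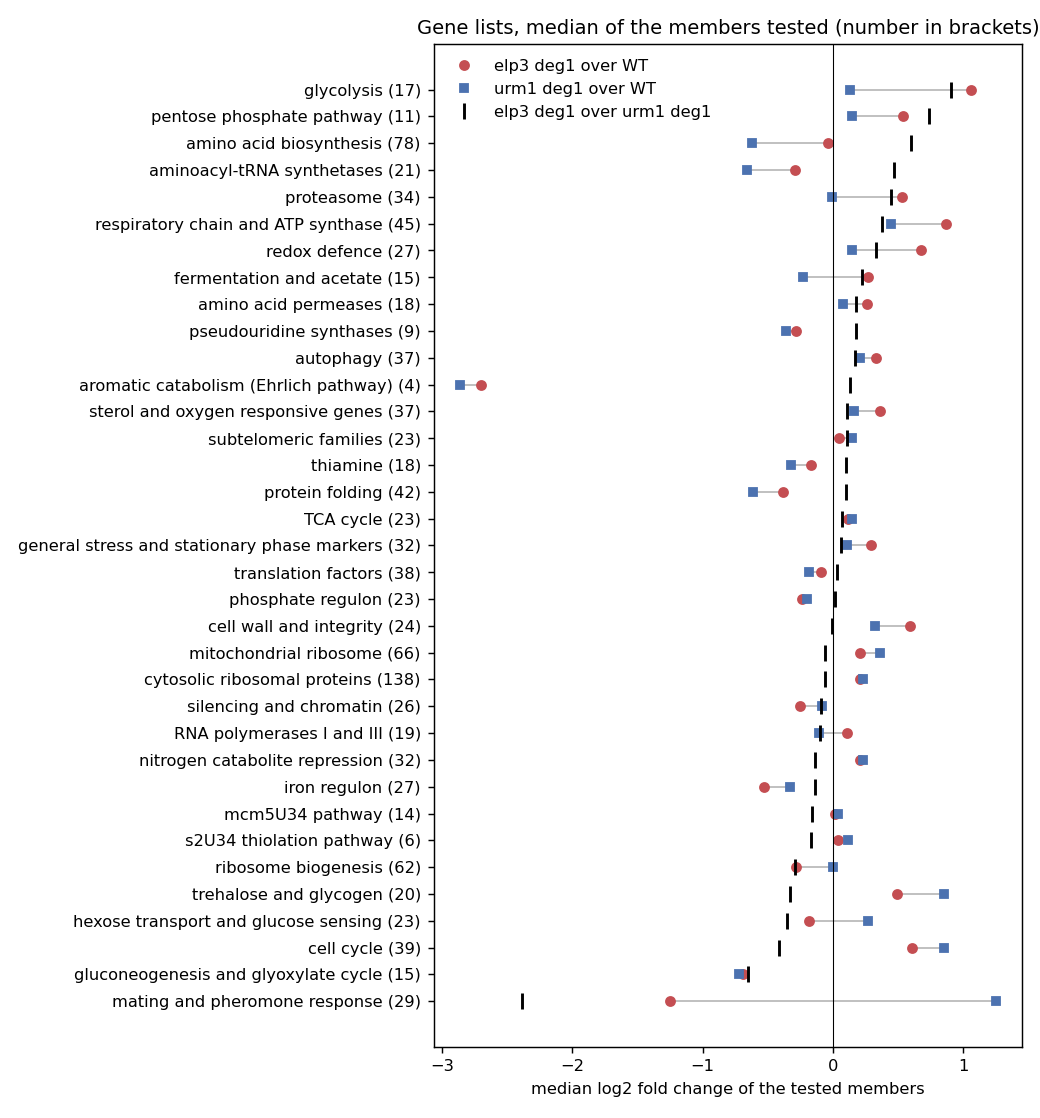
Median log2 fold change of the tested genes of each of the 35 lists, for elp3 deg1 over WT (circles), urm1 deg1 over WT (squares) and elp3 deg1 over urm1 deg1 (bars), ordered by the last of these and with the number of genes tested in brackets. The mating list lies at the low end (−2.39) and glycolysis at the high end (0.91), and for mating the WT comparisons lie at −1.25 and 1.25.

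Nuclear genes of respiration were higher in elp3 deg1. Of 45 genes for subunits of the respiratory complexes and of ATP synthase, 37 were higher and 2 lower (NDI1, chosen after its value was seen, and COX26, not called over 20 libraries), with a median of 0.38. Both mutants lay above WT here, with medians of 0.87 for elp3 deg1 and 0.45 for urm1 deg1. NDE2, an external NADH dehydrogenase, had 32.0 to 36.4 CPM in elp3 deg1, against 10.2 to 13.1 CPM in urm1 deg1 (1.52 ± 0.12), and ATP15, the epsilon subunit of ATP synthase, had 117 to 130 CPM in elp3 deg1, against 52.8 to 61.9 CPM in urm1 deg1 (1.04 ± 0.06). HAP4, the regulatory subunit of the activator of respiratory genes, had 404, 464, 357 and 352 CPM in elp3 deg1, against 96.8, 106, 106 and 102 CPM in urm1 deg1 and 166 to 176 CPM in WT. Its libraries did not overlap between any of the 3 strains (1.90 ± 0.07). SDH6, an assembly factor of complex II, was among the 10 largest increases, with 44.2 to 50.3 CPM in elp3 deg1, against 9.47 to 11.5 CPM in urm1 deg1 and 42.5 to 52.9 CPM in WT (2.19 ± 0.11).

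TCA cycle enzyme genes were higher in 9 of 16 cases and lower in 2, with a median of 0.19. With 7 activator genes added, 11 of 23 were higher and 5 lower, with a median of 0.07 that turned to −0.11, with 6 higher and 9 lower, with library size alone. CIT2, the peroxisomal citrate synthase that marks the retrograde response, had 796 to 1039 CPM in elp3 deg1, against 2567 to 2687 CPM in urm1 deg1 and 2391 to 2467 CPM in WT (−1.61 ± 0.05). Of 66 mitochondrial ribosomal protein genes, 24 were lower (15 in 1 fit over 20 libraries) and 5 higher (2 or 3 higher without replicate 1 of either strain or replicate 2 or 3 of elp3 deg1), with a median of −0.06 and MRPS17 at −1.21 ± 0.07.

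The proteasome was higher in elp3 deg1 in nearly all its subunits, none by 2-fold. Of 34 genes, 30 were higher and 1 was lower, with a median of 0.45 (0.53 for elp3 deg1 over WT and −0.01 for urm1 deg1 over WT). All 14 genes of the core particle were higher. PRE3, a catalytic subunit, had 331, 349, 344 and 333 CPM in elp3 deg1, against 179, 154, 180 and 175 CPM in urm1 deg1 and 162 to 188 CPM in WT. The urm1 deg1 libraries overlapped WT and the elp3 deg1 libraries lay above it (0.94 ± 0.05, adjusted p = 6.8e-17 in edgeR's quasi-likelihood test). RPN4, which encodes the transcription factor of proteasome genes, was the gene that was lower, with 182 to 221 CPM in elp3 deg1, against 275 to 294 CPM in urm1 deg1 and 386 to 410 CPM in WT (−0.56 ± 0.05).

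The PRE2 promoter is shown with its match to GGTGGCAAA, the motif bound by Rpn4, in capitals (XVI:732049-732348, plus strand, 300 bases before the start codon). Matches on either strand were in 28 of the 34 windows of proteasome genes (82.4%), and in 72 of all windows (1.2%). The 70 tested genes with a match had a median of 0.45, against −0.02 for the genes without one, and 28 of the windows with a match belong to the proteasome list itself. Other motifs searched gave smaller gaps. The medians with and without a match were −0.133 and −0.004 for TGAAACA, 0.097 and −0.023 for TGACTC, and −0.106 and 0.012 for GATGAG. They were 0.034 and −0.013 for CACGTG, 0.006 and −0.029 for CTTCC, and −0.030 and −0.007 for CCAAT.
PRE2: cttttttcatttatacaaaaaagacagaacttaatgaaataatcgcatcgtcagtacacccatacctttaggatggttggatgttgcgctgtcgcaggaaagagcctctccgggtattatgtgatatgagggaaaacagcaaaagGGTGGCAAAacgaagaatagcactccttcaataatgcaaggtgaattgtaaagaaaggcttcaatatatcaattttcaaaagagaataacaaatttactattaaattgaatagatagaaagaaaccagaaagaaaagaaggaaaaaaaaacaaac

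Chaperone genes were mixed: 18 of 42 were higher and 7 lower, with a median of 0.10 that turned to −0.09 with library size alone. KAR2, the Hsp70 of the endoplasmic reticulum, had 1861, 1979, 1913 and 1958 CPM in elp3 deg1, against 531, 513, 504 and 520 CPM in urm1 deg1 and 817 to 852 CPM in WT. It was above WT in elp3 deg1 and below WT in urm1 deg1 (1.86 ± 0.03). SSA4, a cytosolic Hsp70 induced by stress, was below WT in both, with 131 to 161 CPM in elp3 deg1, against 409 to 446 CPM in urm1 deg1 and 1559 to 1608 CPM in WT (−1.61 ± 0.05). HSP26, a small heat shock protein, differed by −0.89 ± 0.05.

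Redox defence genes were higher in 15 of 27 cases and lower in 4, with a median of 0.33, and the increases of at least 2-fold were thioredoxin, peroxiredoxin and glutathione peroxidase genes. AHP1 (XII:368781-369311, plus strand), the thiol peroxidase to which Urm1 is attached, had 2527, 2525, 2365 and 2376 CPM in elp3 deg1, against 908, 781, 865 and 847 CPM in urm1 deg1 and 1594 to 1698 CPM in WT. The mRNA was thus highest in elp3 deg1 and lowest in the strain without Urm1 (1.49 ± 0.04, adjusted p = 4.1e-24 in edgeR's quasi-likelihood test). TSA1, the main cytosolic peroxiredoxin, had 1921 to 2073 CPM in elp3 deg1, against 822 to 896 CPM in urm1 deg1 (1.20 ± 0.03). Chosen after their values were seen, the thioredoxin genes TRX1 and TRX2 differed by 1.11 ± 0.05 and 1.05 ± 0.05, and the peroxidase gene HYR1 by 1.08 ± 0.05. CTA1, the peroxisomal catalase, went the other way (−1.16 ± 0.12).

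A few genes of phosphate and iron uptake gave large differences within lists that were mixed. PHO84 (XIII:24037-25800, minus strand), the high-affinity phosphate transporter, had 3.61, 2.37, 3.20 and 3.08 CPM in elp3 deg1, against 83.8, 88.9, 82.9 and 89.8 CPM in urm1 deg1 and 106 to 136 CPM in WT. The elp3 deg1 libraries alone were near the floor (−4.84 ± 0.13, adjusted p = 5.5e-24 in edgeR's quasi-likelihood test). PHO89, the sodium-coupled phosphate transporter, had 5.62 to 7.99 CPM in elp3 deg1, against 61.2 to 65.4 CPM in urm1 deg1 and 55.2 to 61.3 CPM in WT (−3.27 ± 0.11). Over the 23 phosphate genes, 7 were higher and 6 lower, with PHM8 the largest increase (0.93 ± 0.05), and the median of 0.02 turned to −0.16 with library size alone, to −0.01 with upper quartile factors and to −0.03 without replicate 2 of elp3 deg1 or replicate 4 of urm1 deg1. Among 27 iron genes tested, 12 were lower and 6 higher, with HMX1, heme oxygenase, at −1.92 ± 0.11, FTR1, the high-affinity iron permease, at −1.50 ± 0.06 and ISU1, a scaffold of iron-sulfur cluster assembly, at 0.85 ± 0.05.

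Sterol and oxygen responsive genes had 14 of 37 higher and 8 lower, with a median of 0.11 that turned to −0.08 with library size alone. OLE1, the fatty acid desaturase, was the largest decrease, with 536, 423, 587 and 559 CPM in elp3 deg1, against 2050, 2202, 2111 and 1977 CPM in urm1 deg1 and 142 to 159 CPM in WT. Both mutants were above WT for it, and urm1 deg1 further (−2.03 ± 0.06). CYC7, the cytochrome c isoform of hypoxic cells, differed by 1.00 ± 0.08.

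Ribosome production genes were lower by small amounts. Of 62 ribosome biogenesis genes, 43 were lower and 7 higher, with a median of −0.29 (−0.28 for elp3 deg1 over WT and 0.00 for urm1 deg1 over WT). NOP14, a factor of the small subunit processome, had 90.9 to 121 CPM in elp3 deg1, against 194 to 229 CPM in urm1 deg1 (−1.03 ± 0.06). The PAC element GATGAG was in 56 of their 62 windows (90.3%), and in 19.1% of all windows. Ribosomal protein genes had 28 of 138 higher and 46 lower with a median of −0.06, but 9 higher and 98 lower with library size alone. RNA polymerase I and III genes had 3 of 19 higher and 6 lower. Among 38 translation factor genes, 12 were higher and 8 lower, with a median of 0.03 (−0.15 with library size alone). HYP2, the eIF5A of aerobic cells, had 647 to 681 CPM in elp3 deg1, against 298 to 315 CPM in urm1 deg1 and 247 to 264 CPM in WT (1.10 ± 0.04), and its hypoxic paralog ANB1 was lower (−0.93 ± 0.18, not called over 20 libraries).

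Stress and stationary phase markers had 12 of 32 higher and 13 lower. HSP12, a membrane-protecting heat shock protein, was raised over WT in both, with 850 to 968 CPM in elp3 deg1, against 1204 to 1297 CPM in urm1 deg1 and 36.9 to 44.1 CPM in WT (−0.47 ± 0.04, not called over 20 libraries). SNO1, which acts with SNZ1 in vitamin B6 synthesis, had 299 to 323 CPM in elp3 deg1, against 51.4 to 61.8 CPM in urm1 deg1 and 284 to 286 CPM in WT (2.43 ± 0.06), and SNZ1 differed by 1.35 ± 0.03. Autophagy genes had 17 of 37 higher and 7 lower, with a median of 0.17 that turned to −0.01 with library size alone. ATG1, the kinase that starts autophagy, had 133 to 147 CPM in elp3 deg1, against 55.2 to 64.1 CPM in urm1 deg1 and 147 to 164 CPM in WT (1.16 ± 0.06).

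The largest increases outside these groups were of genes with varied or unknown roles. MIT1 (V:141892-143892, plus strand), a transcription factor of pseudohyphal growth, had 97.2, 115, 103 and 107 CPM in elp3 deg1, against 12.6, 16.2, 22.3 and 17.2 CPM in urm1 deg1 and 59.8 to 61.6 CPM in WT. It was the largest increase among the genes named by size, and WT lay between the mutants (2.58 ± 0.10, adjusted p = 9.6e-20 in edgeR's quasi-likelihood test). ARO5 had 863 to 887 CPM in elp3 deg1, against 194 to 213 CPM in urm1 deg1 and 830 to 888 CPM in WT (2.07 ± 0.04). ECM13 and TDA6 were higher by 2.16 ± 0.08 and 2.03 ± 0.07, where urm1 deg1 over WT gave 0.39 and −0.19. The actin gene ACT1 was not level either, with 1872 to 1954 CPM in elp3 deg1, against 1085 to 1122 CPM in urm1 deg1 and 1498 to 1527 CPM in WT (0.75 ± 0.03), whereas SRP21 was not called (0.13 ± 0.07).

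Many genes of the modification pathways were called, but apart from the deleted genes and AHP1 they differed by less than 2-fold. Of 14 genes of the mcm5 pathway other than ELP3, 4 were higher in elp3 deg1 and 6 lower, none 2-fold. Among the Elongator subunits ELP4 was lower, with 96.4 to 107 CPM in elp3 deg1, against 121 to 130 CPM in urm1 deg1 (−0.33 ± 0.06). SIT4, the phosphatase that acts on Elongator, differed by 0.47 ± 0.05, and TRM9, the methyltransferase that completes mcm5, by −0.50 ± 0.08. In the thiolation pathway with AHP1, 2 of 6 genes were higher in elp3 deg1 and 3 lower, and AHP1 was the 1 that differed 2-fold (1.49). NCS2 and UBA4 were lower (−0.48 ± 0.06 and −0.29 ± 0.05), and NFS1 was at −0.05. TUM1 was higher (0.26 ± 0.06), a call lost with library size alone (0.08) and in 1 fit over 20 libraries (0.27). Of 9 other pseudouridine synthase genes, 3 were higher and 1 lower, with PUS9, which modifies mitochondrial tRNA, at 0.88 ± 0.10.

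Genes next to the deletions were also read, since a marker can affect its neighbours. YDC1 and SEC16, on each side of ELP3, differed by 0.30 ± 0.05 and 0.23 ± 0.05, but with library size alone by 0.12 and 0.05, neither of them called, and SEC16 was not called in 1 fit over 20 libraries either. NAS2, beside URM1, differed by 0.54 ± 0.08, while FAA3 on its other side was not called (0.20 ± 0.11). Beside DEG1, where the strains are listed with different markers, SPB4 differed by −0.30 ± 0.06 and LOC1 by −0.53 ± 0.06. Whether the markers account for these values was not tested.

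The median log2 fold change per chromosome ran from −0.08 (I) to 0.07 (V). Genes within 10 kb of a chromosome end (52 genes) had a median of −0.06 and those over 100 kb away a median of −0.01. Codon content was compared because the modified tRNAs read codons ending in A. Across 5541 genes, which share libraries and base composition, Spearman's correlation of the log2 fold change with the share of CAA codons, read by the glutamine tRNA, was −0.017, and with its synonym CAG −0.058. It was −0.156 for the lysine codon AAA and 0.037 for AAG, and −0.044 for the glutamate codon GAA and −0.041 for GAG. The tenth of genes with the fewest AAA codons had a median log2 fold change of 0.14, and the tenth with the most one of −0.11. AAA content also ran with the expression level (−0.224 across the same genes), and its separate part in the fold change was not tested.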

How the data were processed

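Poly(A) RNA of 4 elp3 deg1, 4 urm1 deg1 and 4 WT libraries was sequenced after stranded library preparation with 11 PCR cycles and no molecular identifiers. The authors aligned single-end reads with STAR 2.5.1b and deposited whole read counts per gene, without normalization, against the Ensembl release 84 annotation of R64-1-1. The study's methods name htseq count as the counter, whereas the file headers name featureCounts 1.4.6-p2 with strand setting 2, so sense and antisense reads were kept apart. RefSeq locus tags of R64 matched 6048 of 7126 gene IDs, with identical coordinates for 6036. Symbols, tRNAs and promoters come from that reference.

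Groups were taken from the labels. Counts of nuclear genes of the 8 libraries were fitted in R 4.3.3 with edgeR 4.0.16 (TMM factors, filterByExpr with a minimum count of 10, quasi-likelihood test). Of 6762 nuclear genes with a count, 5689 passed, and a gene was called where its adjusted p (Benjamini-Hochberg) was 0.01 or less. Standard errors come from the fold change and its test statistic. Each mutant was also fitted against WT. Both of these fits share the WT libraries, so their values are only set side by side. Displayed CPM use TMM factors over the 12 libraries.

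Members of the comparison and all 35 lists (1119 genes, 1082 tested) were chosen with earlier results of these data known, so lists carry no test. Named by rule were the deleted genes and their neighbours, the 10 largest increases and decreases among called genes with at least 10 CPM whose libraries did not overlap, the 2 largest in each direction of each list, all members of some short lists, and 5 genes that the study measured by quantitative PCR. A few items are not reported here. Other genes named were chosen as checks of the strains and promoters or after their values were seen.

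Alternatives were DESeq2 1.42.0, RLE and upper quartile factors, library size alone, no filter, fits over 12 and 20 libraries, a replicate block, mitochondrial genes kept, an adjusted p of 0.05 and leaving out each library. Promoter motifs were searched on both strands of the 300 bases before each start codon. Python 3.11.15 with pandas 2.3.3, scipy 1.17.1, numpy 2.4.6 and matplotlib 3.10.9 was used for summaries, and limma 3.58.1 was loaded with edgeR.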

Additional observations from a re-analysis of the deposited data

Results flagged for a closer look

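Levels of 384 groups of 4 libraries were searched for a library far from the other 3 of its group. There were 17 such groups, and about 1 in 20 is flagged by chance. The values are normalized CPM, with the range of the other 3 libraries given after each.

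In elp3 deg1, replicate 1 had 200.3 CPM of LYS4 (186 to 188), 43.34 of GDH3 (34.93 to 35.5) and 140.3 of UBA4 (127.9 to 129.2). Replicate 2 had 9333 CPM of CDC19 (9002 to 9029) and 5931 of ARG4 (5735 to 5743). Replicate 3 had 1680 CPM of GND1 (1606 to 1609) and 80.86 of RPC53 (84.15 to 84.74).

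In urm1 deg1, replicate 2 had 314.7 CPM of HYP2 (298 to 299.5). Replicate 3 had 5838 CPM of HXT3 (5922 to 5927), 95.85 of PDC6 (85.02 to 86.7), 62.34 of TRM9 (74.93 to 77.17), 39.27 of HST4 (35.58 to 35.92) and 81.02 of THI22 (86.06 to 86.17). Replicate 4 had 638.4 CPM of BAR1 (653.4 to 656.1) and 724.3 of AAD10 (741.3 to 744.5). Each of these gaps was small beside the difference between the strains for BAR1, CDC19, GND1, ARG4, HYP2 and AAD10.

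Mitochondrially encoded genes, left out of the comparison, had 60.21 CPM, without TMM factors, in replicate 3 of elp3 deg1 (35.81 to 39.22 in the others) and 102.3 in replicate 3 of urm1 deg1 (49.75 to 57.42). Their mean was 43.16 in elp3 deg1 and 65.5 in urm1 deg1, above the 11.7 to 16.02 of the WT libraries. These values rest on few counts in poly(A) RNA. There were 138 to 204 counts per library in elp3 deg1, 177 to 347 in urm1 deg1 and 40 to 53 in WT. Whether they follow the level of mitochondrial transcripts was not tested.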

How the results depend on the processing

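Leaving out each library in turn gave 1682 to 1730 genes higher and 1701 to 1757 lower in elp3 deg1, with 187 to 202 and 232 to 263 of at least 2-fold. Library size alone gave 1118 higher, 2717 lower and 119 higher by at least 2-fold. The fit over 20 libraries, whose spread includes the tcd1 strains, gave 1205 higher and 1099 lower. Of its calls, 2287 were calls of the main fit in the same direction. DESeq2 called 1645 higher and 1598 lower, and 3242 of its calls were calls of the edgeR fit in the same direction. Over the nuclear genes tested, replicate numbers did not pair the libraries. Deviations of same-numbered libraries correlated at −0.068 to 0.067, and the replicate block gave 1745 higher and 1789 lower. Mitochondrially encoded genes were not part of this, and replicate 3 had the highest level of them in both strains. For the genes named here, 3349 of 3384 values under the alternatives kept their direction and their side of the threshold, 34 lost the call, 1 gained it and 0 reversed, and against WT it was 2217 of 2250, with 26 lost, 7 gained and 0 reversed. Of the calls lost between the mutants, 29 were lost in the fit over 20 libraries and 5 with library size alone. In the fit over 20 libraries, HSP12 −0.46 (adjusted p = 0.44 in edgeR's quasi-likelihood test), PDC5 −0.56 (0.35), ARO10 −0.29 (0.2), MEP2 −0.46 (0.16), CLN1 −0.95 (0.077), CLB2 −0.85 (0.07), TKL2 −2.01 (0.033), GLK1 0.57 (0.028), COX26 −0.99 (0.024), FBA1 0.92 (0.02), ANB1 −0.91 (0.017), ADH2 −2.10 (0.015), CWP1 −0.79 (0.015) and GLC3 −1.27 (0.013) were among them, with adjusted p-values of the same test in parentheses. Among lists, library size alone gave the translation factors 18 lower in place of 8 and the protein folding genes 20 in place of 7, and the fit over 20 libraries called 4 ribosomal protein genes higher and 1 lower. The depth limits genes under about 1 CPM, where 3 counts cannot be told from none.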

Other observations

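Gene families near chromosome ends and a few others differed in single members. Of 50 subtelomeric family genes 23 could be tested, and 8 were higher and 6 lower, with a median of 0.11 that turned to −0.07 with library size alone, to −0.04 without replicate 4 of urm1 deg1 and to −0.00 without replicate 2 of elp3 deg1. COS genes were higher in 7 of 10 cases, with COS12 at 51.5 to 57.6 CPM in elp3 deg1, against 23.3 to 33.0 CPM in urm1 deg1 and 1.5 to 5.53 CPM in WT (0.94 ± 0.09). Members of these families share sequence, so reads may have been divided between them. AAD10, an aryl-alcohol dehydrogenase gene, had 202 to 229 CPM in elp3 deg1, against 724 to 745 CPM in urm1 deg1 (−1.82 ± 0.04).

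Of 24 cell wall and integrity genes, 11 were higher and 8 lower. PIR1, a cross-linked wall protein, had 638 to 661 CPM in elp3 deg1, against 299 to 323 CPM in urm1 deg1 and 210 to 221 CPM in WT (1.04 ± 0.04), and CWP1, a mannoprotein, went the other way (−0.80 ± 0.06, not called over 20 libraries). Of 18 thiamine genes, 5 were higher and 2 lower, with PHO3, a thiamine-regulated acid phosphatase, at 0.75 ± 0.12 and THI22 at −0.70 ± 0.07. Among silencing and acetyltransferase genes, HST4, a sirtuin, differed by −1.01 ± 0.10 and ADA2, an adaptor of histone acetyltransferase complexes, by −0.98 ± 0.08.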
